A study of Mus musculus with 4 samples.

Results

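The 6 genes described here, the CC chemokines Ccl2, Ccl7, Ccl8, Ccl11 and Ccl19 and the growth factor Csf1, were taken by symbol from the 28001 genes and reporter sequences that the 4 libraries share, and all 6 were detected. Gene expression was measured by droplet single-cell RNA sequencing of sorted mouse heart cells, 1 library per group. The first library held tdTomato+ cells pooled from 3 undamaged hearts of C57BL/6 (Hic1 CreERT2 tdTomato) mice, whose label marks cells that expressed Hic1 when Cre was induced and their descendants. The second held the same kind of cell pooled from 3 hearts 7 days after ligation of the left anterior descending (LAD) coronary artery, a model of myocardial infarction. The third held citrine+ cells of C57BL/6 (Hic1 Citrine) mice, from 3 undamaged hearts, each tagged with its own antibody hashtag. The fourth held GFP+ cells of mice with the B6.129S4-Pdgfratm11(EGFP)Sor/J allele (PDGFRa H2BEGFP+), from 2 undamaged hearts and 2 hearts 7 days after LAD ligation, tagged likewise. The sources used here give no age of the mice, and they do not say which PDGFRa hashtag marks an undamaged or a ligated heart. Each condition that the labels name could be read from 1 library only, and the 4 PDGFRa hearts could not be assigned to a condition, so no test between groups was made and the 95% intervals below cover counting error only.

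CC chemokines are small secreted proteins that draw leukocytes out of the blood through receptors of the Ccr family. Ccl2 and Ccl7 draw monocytes, mainly through Ccr2, and Ccl8 is their close relative. Ccl11 (eotaxin) draws eosinophils through Ccr3, and Ccl19 draws dendritic cells and T cells through Ccr7. Csf1 is the growth factor that macrophages need for survival, through its receptor Csf1r. In the heart, fibroblasts and other stromal cells are known sources of these signals after infarction.

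Ccl2, Ccl7, Ccl11 and Ccl8 lie side by side on the plus strand of mouse chromosome 11 in a block of 81.2 kb, all as protein-coding genes (mm10, GENCODE vM21). Ccl2 is at chr11:82035571-82037453, Ccl7 at chr11:82045712-82047525, Ccl11 at chr11:82057823-82062955 and Ccl8 at chr11:82115185-82116799. Between Ccl11 and Ccl8 lies Ccl12, at chr11:82101845-82103400, which was nearly silent here, with 0 UMIs (unique molecular identifiers, each 1 captured RNA molecule) in undamaged and 1 UMI in ligated tdTomato fibroblast-like cells. Csf1 is on the minus strand at chr3:107741048-107760469 and Ccl19 on the minus strand at chr4:42754525-42756577. A second feature with the symbol Ccl19 held 0 UMIs in every library.

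Promoter entries were found for 3 of the 6 genes, Ccl8, Ccl19 and Csf1 (RefSeq, GRCm38.p6). The 250 bases before the start site are shown for Ccl8, as an example of a gene with its RNA in few cells, and for Csf1, which was found in many. The Ccl19 entry begins inside the annotated gene and is not shown. Capitals mark a match to the NF-kB consensus, and the sequences read 5′ to 3′ on the strand of the gene (Ccl8 at chr11:82114935-82115184, plus; Csf1 at chr3:107760470-107760719, minus).
Ccl8: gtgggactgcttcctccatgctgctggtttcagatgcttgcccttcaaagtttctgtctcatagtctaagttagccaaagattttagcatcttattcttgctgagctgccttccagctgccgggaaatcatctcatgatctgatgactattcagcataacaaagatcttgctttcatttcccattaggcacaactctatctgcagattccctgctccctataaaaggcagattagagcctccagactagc
Csf1: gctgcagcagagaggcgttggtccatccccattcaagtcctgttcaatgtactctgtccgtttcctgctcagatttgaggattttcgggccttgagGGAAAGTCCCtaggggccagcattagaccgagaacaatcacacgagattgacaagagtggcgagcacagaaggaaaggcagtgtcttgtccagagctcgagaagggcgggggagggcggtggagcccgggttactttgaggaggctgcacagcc
The entries, which run from 250 bases before to 50 bases after the start, were searched on both strands for the NF-kB consensus, for the AP-1 motif TGANTCA and for the IRF pair, which is GAAA, any 2 bases and GAAA again. In Csf1 the NF-kB match GGAAAGTCCC lay at bases -154 to -145 from the start site and read as the consensus on the opposite strand. In Ccl19 an IRF pair, GAAAGTGAAA, lay at bases -208 to -199 from the RefSeq start, which is 212 bases downstream of the GENCODE start of that gene. Ccl8 held no match to these 3 motifs, which says only that these letters are not in that window. Of 32851 promoters of the same length, 8.46% held the NF-kB consensus, 7.81% the AP-1 motif and 3.44% the IRF pair, so such matches are not rare.

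Between 2786 and 12567 cells per library were kept, with median depths of 3453 and 3668 UMIs in the undamaged and ligated tdTomato libraries and of 8038.5 and 7729 UMIs in the citrine and PDGFRa libraries. Cell classes carry the ending "-like" since they rest on RNA alone. Fibroblast-like cells made up 87.2% (undamaged) and 73.2% (ligated) of the tdTomato libraries, 97.6% of the citrine library and all 12567 cells of the PDGFRa library. Pericyte-like cells made up 6.42% and 18.3% in the same order. Within fibroblast-like cells all 8 fibroblast markers were detected in each library. Of 10 macrophage and monocyte markers, 5 had a UMI in undamaged and 7 in ligated tdTomato fibroblast-like cells, at a summed level of 8.80 and 8.68 counts per 1000000 UMIs of the class (CPM), and Adgre1, Fcgr1 and Ptprc were at 0 in both. The libraries shared at most 35 cell barcodes pairwise.

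Across the 4 libraries the monocyte chemokines Ccl2 and Ccl7 were the most abundant of the 6 genes in fibroblast-like cells and Ccl8, the scarcest of the 4 members on chromosome 11, stayed below 19 CPM. Ccl2 stood at 149 CPM (95% interval 141 to 157) in undamaged and 216 CPM (208 to 224) in ligated tdTomato cells, at 276 CPM (273 to 280) in citrine cells and at 343 CPM (339 to 346) in PDGFRa cells. Ccl7 stood at 218, 576, 213 and 342 CPM in the same order. Ccl7 therefore led in both tdTomato libraries, Ccl2 led in the citrine library, and in the PDGFRa library the intervals of both overlapped. Ccl8 ranged from 7.59 CPM in undamaged tdTomato cells to 18.5 CPM in ligated tdTomato cells, with 15.9 CPM in citrine and 14.5 CPM in PDGFRa cells. Ccl11 was lowest in citrine cells, at 44.3 CPM, with 70.4 and 107 CPM in undamaged and ligated tdTomato cells and 130 CPM in PDGFRa cells. These are 3′ counts, 1 per captured transcript, and do not scale with gene length.

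Ccl19 and Csf1 were the extremes of variability between libraries. Ccl19 stood at 115 CPM (108 to 122) in undamaged and 39.7 CPM (36.5 to 43.1) in ligated tdTomato cells but at 6.11 CPM (5.62 to 6.63) in citrine and 1.43 CPM (1.23 to 1.66) in PDGFRa cells. Undamaged tdTomato cells thus held 18.8-fold more Ccl19 than citrine cells, both from undamaged hearts (95% interval 17.0 to 20.9). These libraries differ in reporter line, depth and barcode set, and the parts of these cannot be told apart. Csf1 was nearly level by comparison, at 69.7, 59.6, 102 and 88.5 CPM in the order of libraries used above.

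**Figure D1:**
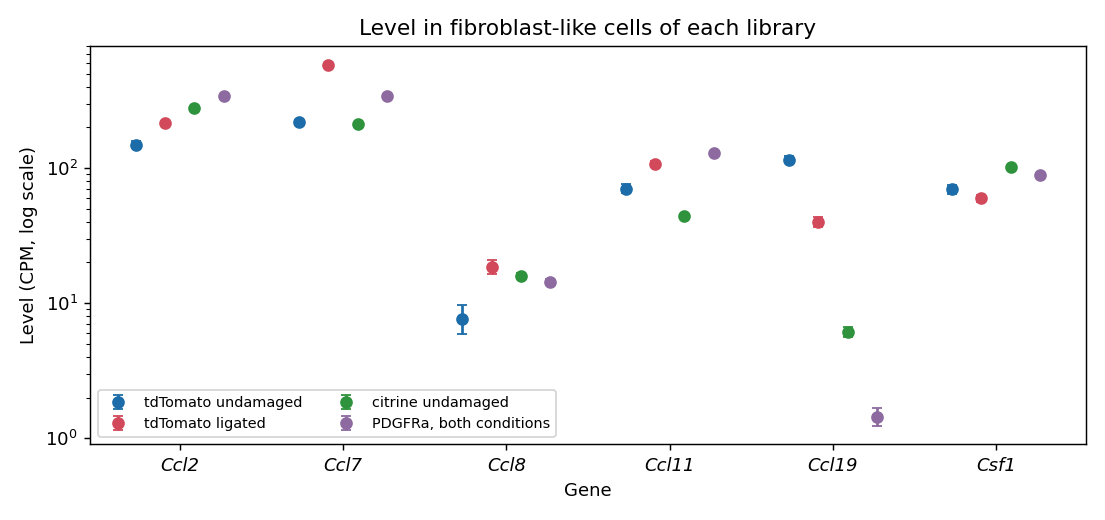
Level of each gene in fibroblast-like cells of the 4 libraries (CPM on a log axis; points are 1 library each and bars are exact Poisson 95% intervals, which cover counting error only). Ccl19 spans from 1.43 CPM in PDGFRa to 115 CPM in undamaged tdTomato cells, while Csf1 stays between 59.6 and 102 CPM.

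The first comparison asked how the labelled fibroblast-like cells differed 7 days after ligation. In ligated hearts Ccl7 and Ccl8 were over 2-fold higher, Ccl2 and Ccl11 were about 1.5-fold higher, Ccl19 was 2.90-fold lower and Csf1 was slightly lower. Ccl7 stood at 218 CPM (208 to 227) in undamaged and 576 CPM (564 to 589) in ligated cells, a ratio of 2.65 (2.52 to 2.78). Ccl8 stood at 7.59 CPM (69 UMIs) and 18.5 CPM (266 UMIs), a ratio of 2.43 (1.86 to 3.22). The ratio was 1.45 (1.36 to 1.54) for Ccl2 and 1.52 (1.38 to 1.67) for Ccl11, so the 4 neighbours on chromosome 11 were all higher in ligated tdTomato cells. Ccl19, the chemokine of the Ccr7 axis, had a ratio of 0.345 (0.311 to 0.383), and Csf1 one of 0.854 (0.770 to 0.948). The condition of each PDGFRa heart is not given, so these ratios could not be repeated there. PDGFRa hashtags 1 and 2, which had the most Postn, held less Ccl11 (53.6 and 89.1 CPM) than hashtags 3 and 4 (231 and 189 CPM). Hashtags 1 and 2 held more Ccl2 and Ccl7, and Ccl8 did not split in this way.

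Over 2-fold higher were 2 of the 6 genes, against 3.08% of the 12293 genes with at least 20 UMIs in both libraries together, and over 2-fold lower was 1 of the 6, against 4.31%. The median log2 ratio was 0.57 over the 6 genes and -0.06 over all genes tested. Leaving out every cell with a macrophage or monocyte marker UMI gave a ratio of 2.73 for Ccl7 and 1.60 for Ccl2. The Ccl7 ratio was 3.28 without the activated-like cluster of the ligated library, a name that no undamaged cluster took. The immediate early genes, which heat and enzyme digestion of tissue can induce, moved in the same direction: 2 of 18 were over 2-fold higher, with a median log2 ratio of 0.44, and their part in the result was not tested.

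More cells carried Ccl7 after ligation. With every cell thinned to 2000 UMIs, 10.3% of undamaged and 21.3% of ligated tdTomato fibroblast-like cells had a Ccl7 UMI (13.2% and 28.5% unthinned). In cells with any Ccl7 UMI the mean was 6.16 UMIs in the undamaged and 9.32 in the ligated library, without thinning, and these cells were also deeper in the ligated library (median 4565 UMIs against 3830). For Ccl19 the thinned share was 17.0% in undamaged and 7.37% in ligated cells (24.6% and 12.9% unthinned). Ccl2 was found in 7.67% and 10.1% of thinned cells, Ccl11 in 5.23% and 7.69%, Ccl8 in 0.994% and 2.25% and Csf1 in 12.4% and 11.3%. In smooth muscle-like cells of the same libraries, whose median depths were 2454 and 2710 UMIs against 3659 and 4006 in fibroblast-like cells, the thinned share with Ccl7 was 0.468% and 3.93%. With Ccl19 it was 0.566% and 0.115%, with Ccl2 3.90% and 3.91%, with Ccl11 1.29% and 1.13%, with Ccl8 0.50% and 0.399%, and with Csf1 1.57% and 3.66%. The fibroblast-like share of each gene lay above that of smooth muscle-like cells in both libraries, although the intervals overlapped for Ccl2 and Ccl11 in the undamaged library and for Ccl8 in both.

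Pericyte-like cells gave a different picture for Ccl2 and Ccl11, which were lower in the ligated library. Ccl2 stood at 154 CPM (113 to 205) in undamaged and 57.2 CPM (47.6 to 68.2) in ligated pericyte-like cells, a ratio of 0.372 (0.263 to 0.534). The undamaged value rested on 46 UMIs in 8 of 179 cells, and 1 cell held 20 of them. The ligated value rested on 125 UMIs in 37 of 782 cells, which had a greater median depth. Without the cell richest in Ccl2 in each library the ratio was 0.587 (0.381 to 0.938), with both tdTomato libraries clustered together it was 0.619, and the ratio of shares of cells thinned to 1000 UMIs was 0.710. Ccl11 stood at 60.2 CPM (18 UMIs) and 24.7 CPM (54 UMIs), a ratio of 0.411 (0.237 to 0.744). Smooth muscle-like cells of the same libraries held 39.3 CPM (22.5 to 63.9) and 34.7 CPM (23.9 to 48.7) of Ccl2, and 4.92 CPM (0.595 to 17.8) and 19.98 CPM (12.03 to 31.2) of Ccl11. With cells thinned to 1000 UMIs, 3.72% of undamaged and 1.31% of ligated pericyte-like cells had a Ccl11 UMI, against 0.472% and 0.784% of smooth muscle-like cells, and for Ccl2 the shares were 3.83% and 2.72% against 2.07% and 1.87%. The unthinned median depths were 1584 and 2297 UMIs in pericyte-like and 2454 and 2710 in smooth muscle-like cells. In the ligated library the CPM intervals of both genes overlapped between these classes, for Ccl2 only from 47.6 to 48.7 CPM. Smooth muscle-like cells are not a measure of background, and how much of either level is background was not tested.

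For the other 4 genes the pericyte-like interval of the ratio included 1 or the UMIs were too few for a ratio. Ccl7 stood at 10.0 CPM from 3 UMIs in undamaged and 28.8 CPM from 63 UMIs in ligated cells, a ratio of 2.88 (0.94 to 14.3). Ccl7 in smooth muscle-like cells went from 1 to 34 UMIs (2.46 and 35.7 CPM). The level in ligated pericyte-like cells was thus no higher than in ligated smooth muscle-like cells. Fibroblast markers summed to 3992 and 2099 CPM in undamaged and ligated pericyte-like cells, against 83823 and 43757 CPM in fibroblast-like cells. How much of the Ccl7 level in pericyte-like or smooth muscle-like cells is background was not tested. Ccl19 stood at 20.1 and 13.7 CPM and Csf1 at 30.1 and 21.5 CPM, while Ccl8 had 0 and 2 UMIs, too few for a ratio. Of the 5 genes with at least 20 UMIs, 1 was over 2-fold higher, against 8.24% of 8681 genes, and 2 were over 2-fold lower, against 6.09%. The median log2 ratio was -0.55 over these 5 genes and -0.07 over all genes tested. The immediate early genes had a median log2 ratio of -0.27 in pericyte-like cells, with 1 of 18 over 2-fold higher and 2 lower, and their part in the result was not tested.

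Ligated pericyte-like cells fell into clusters that differed in Ccl2. The larger, of 488 cells, held 16.1 CPM of Ccl2 and 5.68 CPM of Ccl11, and the smaller, of 294 cells and led by Rgs16, held 95.7 and 42.5 CPM. The undamaged pericyte-like cells formed a single cluster, so the makeup of the class also differed between the libraries. Ccl7 and Ccl2 were not present in the same ratio in all cell types of a library: there were 1.46 Ccl7 UMIs per Ccl2 UMI in undamaged fibroblast-like cells but 0.0652 in pericyte-like cells, and 2.67 and 0.504 after ligation. A ligated cluster of 41 cells with markers of both classes (0.962% of that library, 0 cells in the undamaged one) was left unnamed. The citrine library also had 219 pericyte-like cells, but their summed fibroblast markers (22167 CPM) exceeded their pericyte markers (14201 CPM), and they are not used as a reference.

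**Figure D2:**
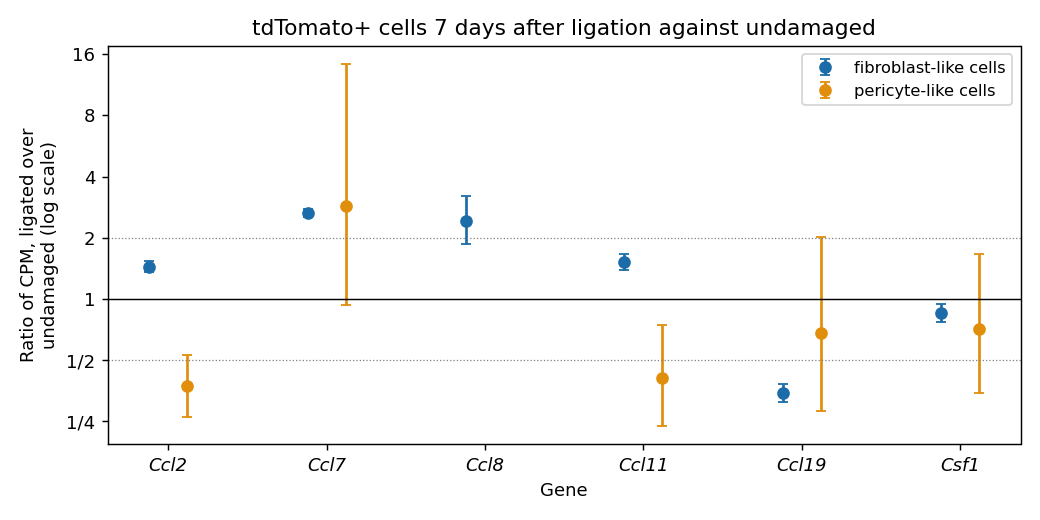
Ratio of CPM in ligated over undamaged tdTomato cells for fibroblast-like and pericyte-like cells (log axis; bars are exact 95% intervals for counting error, dotted lines mark 2-fold, and Ccl8 in pericyte-like cells is left out for its 2 UMIs). Ccl2 and Ccl11 lie above 1 in fibroblast-like cells (1.45 and 1.52) and below 1 in pericyte-like cells (0.372 and 0.411).

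Most of the further ligands and all of the receptors on the pathway list were thinly expressed in tdTomato fibroblast-like cells, while the atypical receptors and the upstream genes all reached 20 UMIs. Of 17 further ligands, 12 had fewer than 20 UMIs. Of the 5 measured, 2 were over 2-fold higher after ligation, against 3.08% of all 12293 genes tested. None was over 2-fold lower, against 4.31%, and 3 lay between. Those higher were Ccl9, another chemokine of the family, at 3 and 59 UMIs (0.330 and 4.10 CPM), and Ccl5, which attracts lymphocytes and monocytes, at 1.76 and 4.51 CPM. Il34, the alternative ligand of Csf1r, stood at 3.74 and 5.28 CPM. All 7 receptors on the list, Csf1r and Ccr2 among them, had fewer than 20 UMIs. The 4 atypical receptors on the list, most of which bind chemokines without the usual signalling, lay within 2-fold: Ackr4, which takes up Ccl19, stood at 43.2 and 29.8 CPM, a ratio of 0.689 (0.599 to 0.792), and Ackr2, which takes up inflammatory CC chemokines, at 9.46 and 5.21 CPM. Of 17 measured genes upstream of the chemokines, 2 were over 2-fold higher, against 3.08% of all genes tested. A further 2 were over 2-fold lower, against 4.31%, and 13 lay between. Tnfaip3, a feedback inhibitor of NF-kB, had a ratio of 2.68 (2.18 to 3.32) and Socs3, a feedback inhibitor of cytokine signalling, one of 2.15 (2.09 to 2.21). The pattern receptor Tlr2 had a ratio of 0.379 (0.291 to 0.492) and the transcription factor Cebpb one of 0.480 (0.334 to 0.686).

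The RNA of each chemokine was more concentrated in a small part of the fibroblast-like cells than that of Csf1, in each of the 4 libraries. The top 1% of cells for each gene held 58.6% of all Ccl2 UMIs in the undamaged tdTomato library (25 cells), 44.5% in the ligated one (32 cells), 56.3% in the citrine library (106 cells) and 43.0% in the PDGFRa library (126 cells). For Csf1 the top 1% held 11.5%, 10.5%, 7.94% and 9.48%. Single cells reached 635 Ccl2 UMIs in the citrine and 481 in the PDGFRa library, but at most 23 Csf1 UMIs in any library. For Ccl8 the top 1% held more than for Ccl2 in each library, 58.1% to 84.1%, but only 36 undamaged tdTomato cells had any Ccl8 UMI, so 25 cells had to hold most of it there. Ccl7 and Ccl11 lay between Csf1 and Ccl2 in each library, at 28.6% to 46.1% and 35.5% to 52.2%. For Ccl19 the top 1% held 16.6% and 25.2% in undamaged and ligated tdTomato cells, 37.7% in citrine cells and 92.5% in PDGFRa cells, where 139 cells had a UMI. A rare gene is more concentrated by counting alone, so these shares compare genes of like abundance best, such as Csf1 with Ccl11.

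The clusters of fibroblast-like cells showed the same contrast, although the 6 genes, the pathway list and the immediate early list were left out of the clustering. Csf1 differed only 1.56- to 2.23-fold between the highest and lowest cluster of at least 50 cells within any library. Ccl2 differed 44.7-fold between undamaged tdTomato clusters, from 19.6 to 876 CPM, and 6.09-fold between ligated ones. In the citrine library a cluster of 129 cells led by Il6, Ccl2 and Cxcl2, all of them NF-kB target genes, held 3200 CPM of Ccl2, 1072 CPM of Ccl7 and 65.1 CPM of Ccl8, with 124 CPM of Csf1. In the PDGFRa library a cluster of 1375 cells with Ccl7, Ccl8 and Ccl11 among its 10 leading genes held 1267 CPM of Ccl7, 58.5 CPM of Ccl8 and 407 CPM of Ccl11, each the highest of its library. A further PDGFRa cluster of 98 cells, with the epicardial marker Wt1 among its 10 leading genes, had 4 of 8 fibroblast markers detected. It was still named fibroblast-like, and it held the most Ccl2 (786 CPM) and the least Csf1 (50.4 CPM) of the clusters of that library.

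**Figure D3:**
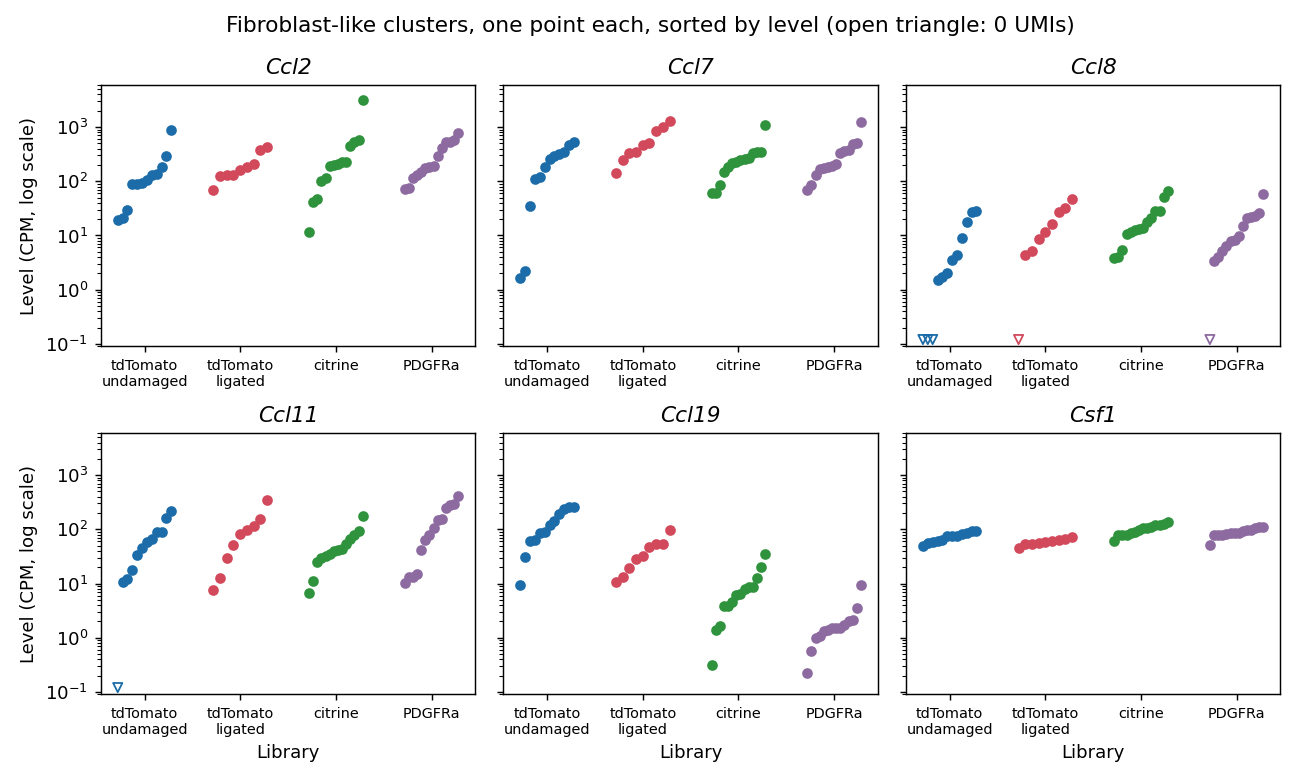
Level of each gene in every fibroblast-like cluster of at least 50 cells, by library (CPM on a log axis; each point is 1 cluster, sorted by level, and open triangles mark clusters with 0 UMIs). Csf1 spans at most 2.23-fold within a library, whereas Ccl2 spans 44.7-fold among undamaged tdTomato clusters.

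Some of this pattern followed the named fibroblast subsets, and it could be read in each of the 7 hashed hearts. Clusters named Sca1-high fibroblast-like, by Pi16, Dpp4, Ly6a and other adventitial genes, held more Ccl8 than the other fibroblast-like cells in 7 of 7 hearts, with ratios from 1.62 to 4.2 and a median of 2.23. In the tdTomato libraries the Ccl8 ratio was 2.65 (1.39 to 4.77) in undamaged and 1.56 (1.10 to 2.16) in ligated cells. The same cells held less Ccl19 in 7 of 7 hearts, but with only 0 or 1 Ccl19 UMI in each heart. In every PDGFRa heart the interval of that ratio included 1. In the undamaged tdTomato library, where Ccl19 was abundant enough to measure, Sca1-high cells held 9.28 CPM of Ccl19 against 126 CPM in other fibroblast-like cells. In the ligated library they held 12.9 against 43.1 CPM. Ccl2 was lower in Sca1-high cells in 5 of 7 hearts and Csf1 slightly higher in 6 of 7.

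Wif1-like fibroblasts, named by a list of Wif1, Comp, Fmod and other matrix genes, were poor in the chemokines of chromosome 11. At least 60% of the list was enough for the name, and Wif1 was among the 10 leading genes only in undamaged tdTomato cells. The citrine clusters with this name were led by Igfbp3 and Cytl1 (933 cells) and by Thbs4 and Postn (706 cells). The PDGFRa one was led by Cytl1 and Dio2. An undamaged tdTomato cluster led by Dio2, Cst6 and Cilp did not take the name. The name may therefore cover different cells in each library. Ccl7, Ccl8 and Ccl11 were lower in Wif1-like cells in 7 of 7 hearts, with median ratios of 0.246, 0.253 and 0.0477, and Ccl2 was lower in 6 of 7. In the undamaged tdTomato library 144 Wif1-like cells held 1 Ccl7 UMI, 0 Ccl8 UMIs and 0 Ccl11 UMIs, against 233, 8.14 and 75.5 CPM in the other fibroblast-like cells. For Ccl11 a count of 0 allows up to 4.90 CPM (3 UMIs). Ccl19 was instead high in these cells, at 258 CPM (219 to 302) against 105 CPM (97.9 to 112). In the hashed hearts, where Ccl19 was scarce, it was higher in Wif1-like cells in 5 of 7. PDGFRa hashtags 1 and 4, which are among these 5, held 1 and 2 Ccl19 UMIs in Wif1-like cells. Only in citrine heart 3 did the interval of the ratio leave out 1 (1.44 to 3.77).

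Activated-like fibroblasts, named by Postn, Cthrc1 and other genes of the scar response, differed between the chemokines on chromosome 11. In the ligated tdTomato library 407 such cells held 7.54 CPM of Ccl11 (4.92 to 11.1) against 138 CPM (131 to 145) in the other fibroblast-like cells, a ratio of 0.0545. Ccl8 stood at 4.35 against 22.9 CPM and Ccl7 at 141 against 713 CPM, while Ccl2 stood at 164 against 232 CPM. In the PDGFRa library, hashtags 1 and 2 had enough activated-like cells (at least 20) to repeat the comparison. There Ccl11 had ratios of 0.0826 and 0.0707 and Ccl8 of 0.172 and 0.110, while Ccl2 was higher than in the other cells of the heart, with ratios of 1.17 and 1.52. Ccl11 and Ccl8 were thus low in activated-like cells in both libraries, and Ccl2 was not low in the PDGFRa library.

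Sca1-high cells were present in both tdTomato libraries (192 and 347 cells) and allow the ligation comparison within a subset. Ccl7 stood at 346 CPM in undamaged and 837 CPM in ligated Sca1-high cells, a ratio of 2.42 (2.14 to 2.75), close to that of all fibroblast-like cells. The ratio was 1.45 for Ccl2, 1.56 (0.850 to 3.01) for Ccl8, 1.43 for Ccl11 and 0.898 for Csf1. Ccl19, at 9.28 and 12.9 CPM, had a ratio of 1.39 (0.593 to 3.64) on 8 and 21 UMIs. This interval includes 1 and values on both sides of it, so no direction can be given for Ccl19 in this subset. Interferon-like clusters, named by Ifit1, Isg15 and Rsad2, held 876 CPM of Ccl2 against 125 CPM in the other fibroblast-like cells of the undamaged tdTomato library (75 cells). Among 5 hearts with enough such cells, Ccl2 was higher in only 2.

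The 3 citrine hearts give the spread between single undamaged hearts. In fibroblast-like cells of hearts 1, 2 and 3 (926, 2566 and 1738 cells) Ccl2 stood at 482, 231 and 376 CPM, 363 ± 126 CPM (SD, n = 3). Ccl7 stood at 442, 164 and 272 CPM, 293 ± 140 CPM. Heart 1 had the most and heart 2 the least of both monocyte chemokines. Ccl8 stood at 27.8, 11.4 and 17.0 CPM (18.7 ± 8.33), Ccl11 at 73.7, 45.9 and 33.7 CPM (51.1 ± 20.5) and Ccl19 at 12.2, 6.03 and 6.35 CPM (8.18 ± 3.46). Heart 1 was highest for all 5 chemokines. Csf1 stood at 97.1, 95.5 and 85.0 CPM, 92.5 ± 6.54 CPM, and so differed 1.14-fold between the highest and lowest heart.

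This spread is as large as most of the differences seen after ligation. Between the highest and lowest citrine heart Ccl7 differed 2.69-fold, against a ratio of 2.65 between the tdTomato libraries, Ccl2 2.09-fold against 1.45, Ccl8 2.44-fold against 2.43 and Ccl11 2.18-fold against 1.52. Ccl19 differed 2.02-fold between hearts and was 2.90-fold lower after ligation. Each tdTomato value pools 3 hearts, so it is not the same quantity as the value of a single heart, and whether the ligation differences exceed the spread between such pools was not tested. The share of cells with a UMI, after thinning to 2000 UMIs, differed less between hearts than the level did. It was 11.2% ± 1.16 (SD, n = 3) for Ccl2, a 1.22-fold range, and differed 1.60-fold for Ccl7, 1.90-fold for Ccl8, 1.47-fold for Ccl11, 1.24-fold for Ccl19 and 1.12-fold for Csf1. The summed macrophage and monocyte markers moved with heart 1, at 38.0, 13.4 and 11.3 CPM in hearts 1, 2 and 3, while 9.18%, 9.47% and 8.23% of cells held such a UMI. The immediate early genes, at 20653, 23738 and 18961 CPM, were highest in heart 2, and the part of either list in the spread was not tested.

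Within single cells Ccl2 and Ccl7 were found together more often than their separate shares give. With cells thinned to 2000 UMIs, 25.2% of Ccl2-positive cells in the undamaged tdTomato library also had Ccl7, against 10.3% of all fibroblast-like cells. In the ligated library the share was 42.2% against 21.3%, in the citrine library 34.3% against 13.2% and in the PDGFRa library 38.1% against 17.4%. The odds ratio for the pair was above 1 in 7 of 7 hashed hearts, from 3.07 to 4.62 with a median of 3.72. Ccl2 and Ccl7 are immediate neighbours on chromosome 11.

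The other pairs on chromosome 11 also had odds ratios above 1 in each heart, in most hearts below that of Ccl2 with Ccl7; in PDGFRa hashtag 3, Ccl7 with Ccl8 reached 3.48, against 3.07 for Ccl2 with Ccl7. The odds ratio was 1.97 to 3.68 for Ccl7 with Ccl8, 1.42 to 3.10 for Ccl8 with Ccl11, 1.31 to 2.06 for Ccl7 with Ccl11, 1.08 to 2.63 for Ccl2 with Ccl8 and 1.08 to 2.39 for Ccl2 with Ccl11. Pairs with Ccl8 rested on few cells in some hearts, down to 1.19 expected cells with both for Ccl2 with Ccl8 and 1.89 for Ccl8 with Ccl11. In the undamaged tdTomato library, where Ccl8 was found in 22 thinned cells, the odds ratio of Ccl2 with Ccl8 was 0.643, on 1.12 cells with both. Csf1 was found nearly independently of the chemokines, with median odds ratios between 1.07 and 1.26 for its 5 pairs and values on both sides of 1 in each. Ccl2 with Ccl19 exceeded 1 in 7 of 7 hearts, but on as few as 0.575 expected cells with both. Of the 15 pairs, 11 had an odds ratio above 1 in all 4 libraries, and 6 did when cells were thinned to 4000 UMIs instead, which leaves out the shallower cells. Cells of 1 library share its free RNA and any doublets, so these values are a description, and no doublet caller was run.

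**Figure D4:**
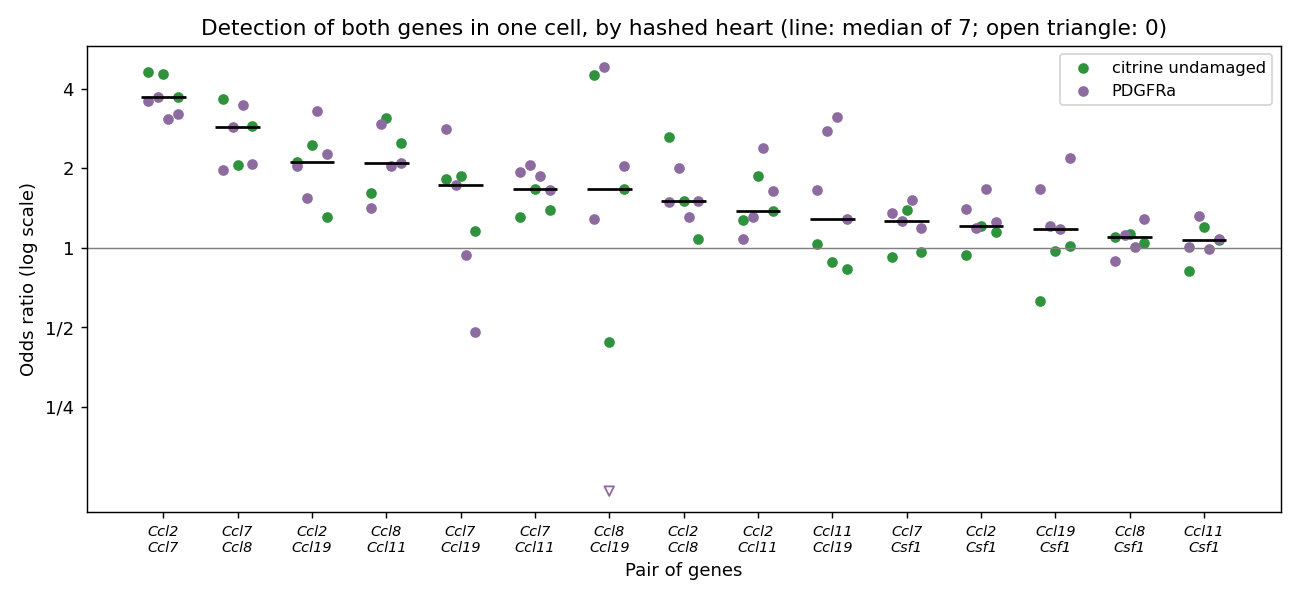
Odds ratio for finding both genes of a pair in one fibroblast-like cell, after thinning to 2000 UMIs, in each of the 7 hashed hearts (log axis; points are hearts, black lines the median, and the open triangle a value of 0). Ccl2 with Ccl7 lies between 3.07 and 4.62 in every heart, and the 5 pairs with Csf1 have medians between 1.07 and 1.26.

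The genes whose levels followed each member most closely over the 57 clusters of at least 30 cells were found by Pearson's r of log2(CPM + 1), centred per library, among 9672 genes. Ccl2 was most like Bcl10 (r = 0.76), Slfn2 (0.66) and Oas1a (0.66), and Ccl7 most like Hmox1 (0.82), Ifi204 (0.81) and Ifi205 (0.80). Ccl8 was most like Socs1 (0.62), Ccl7 (0.61) and Mb21d1 (0.60), and Ccl11 most like Arhgap24 (0.78), AI607873 (0.77) and Slco2b1 (0.76). Ccl19 was most like Apoe (0.79), Cntfr (0.79) and Il11ra1 (0.76), and Csf1 most like Papss2 (0.87), Steap3 (0.86) and the fibroblast marker Dpt (0.86). Among themselves, Ccl7 had r = 0.61 with Ccl2 and with Ccl8 and 0.53 with Ccl11, whereas Ccl2 with Ccl11 had 0.10 and Ccl8 with Ccl19 had -0.06. Clusters of 1 library share its cells and depth, and the pericyte-like and smooth muscle-like clusters are included, so these r values are descriptions without a test.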

How the data were processed

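Sorted heart cells were profiled with the Chromium single cell 3′ v2 kit, per the labels' protocols. The labels give this kit for all 4 libraries, but the barcode sets of the tdTomato and the hashed libraries differ. At most 2 barcodes were shared between a tdTomato and a hashed library, against 35 between the citrine and PDGFRa libraries. Whether all libraries used the same kit was not tested. The authors counted UMIs for each gene in each cell barcode by running Cell Ranger against mm10 with added sequences, per the labels' protocols, and the deposited values are these raw counts. The citrine and PDGFRa matrices come from Cell Ranger 3.0.2, per the file headers; the submitters' processing notes also name Seurat 2.1. Barcodes under 500 genes or 1000 UMIs, or over 10% mitochondrial UMIs, were dropped. Each library was clustered alone (2000 variable genes, 30 principal components, 20 neighbours, Leiden resolution 1; scanpy 1.11.5, leidenalg 0.10.2, scipy 1.17.1, Python 3.11.15, matplotlib 3.10.9), without the 6 genes and the lists described here. Clusters were named by the marker list detected most fully, from a minimum of 3 markers present in 25% of the cells or more. Subset names needed 60% of the subset's markers. UMIs were summed per class and given as CPM of the class total. Intervals are exact (Poisson for levels, conditional binomial for ratios) at 95%. Where a sum was 0 a floor of 3 UMIs per class was used. A gene was counted as changed past 2-fold, among genes with at least 20 UMIs in both sums together. Shares of cells are expected shares after thinning each cell to 2000 UMIs, leaving out shallower cells. A cell belonged to a heart when 1 hashtag held at least 80% of its hashtag UMIs and at least 10 of them, which assigned 50.5% of citrine and 58.0% of PDGFRa cells. The interval and thinning code was tested on simulated data. The 6 genes, the gene lists and the marker lists were chosen with earlier results of these data known. Named genes are the 6 members, up to 10 pathway genes with the ratios farthest from 1, Ccl12, and the 3 genes most similar to each member. Genes named beyond these, such as Il34, Ackr2 and Ackr4, were chosen after their values were seen. No doublets were removed.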

Additional observations from a re-analysis of the deposited data

Results flagged for a closer look

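Ccl2 and Ccl11 were higher in ligated than in undamaged fibroblast-like tdTomato cells but lower in pericyte-like cells, with ratios in pericyte-like cells of 0.372 for Ccl2 and 0.411 for Ccl11, and with intervals on opposite sides of 1 in the 2 classes. The difference between the classes was not tested, since each class comes from the same pair of libraries. The intervals cover counting error only and treat the UMIs of 1 cell as independent. The undamaged pericyte-like Ccl2 level rested on 46 UMIs in 8 of 179 cells. The ligated level rested on 125 UMIs in 37 of 782 cells, without thinning. In the ligated library the levels of both genes in pericyte-like cells (57.2 and 24.7 CPM) had intervals that overlapped those of smooth muscle-like cells (34.7 and 19.98 CPM).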

How the results depend on the processing

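Of 119 alternative values for the ligation ratios, the gene counts and the pair count, 95 stayed within the interval, or within 1.5 times the count. No ratio with an interval that left out 1 turned its direction, but the pericyte-like Ccl19 ratio, 0.685 (0.2804 to 2.01), became 1.69 at 5% mitochondrial UMIs and 1.27 without the cell richest in Ccl19 in each library. The Ccl2 ratio in fibroblast-like cells became 1.60 without cells holding a macrophage or monocyte marker UMI. Without activated-like clusters the ratio became 1.56 for Ccl2, 3.28 for Ccl7, 1.96 for Ccl11 and 0.401 for Ccl19. Over all kept cells it became 1.27 for Ccl2, 2.34 for Ccl7 and 1.36 for Ccl11. For Ccl7 it also became 2.49 as a mean of per-cell CPM, 2.11 as a ratio of thinned shares, 2.47 without Wif1-like clusters and 3.03 without the 5% of cells with the most UMIs, and for Ccl19 0.410 as a ratio of thinned shares. In pericyte-like cells the Ccl2 ratio became 0.619 with the libraries clustered together, 0.710 as a ratio of thinned shares and 0.587 without the cell richest in Ccl2 in each library. Leaving out those cells, the Wif1-like clusters or the cells with the most UMIs was chosen after seeing the data. With no filter on UMIs 668 genes were over 2-fold higher and 2423 lower in fibroblast-like cells, and 4274 lower in pericyte-like cells. With at least 100 UMIs the counts were 191 and 184 in fibroblast-like and 176 and 71 in pericyte-like cells, against 379 and 530, and 715 and 529, at 20 UMIs; fewer genes enter a stricter filter. With thinning to 4000 UMIs 6 pairs had an odds ratio above 1 in all libraries, against 11. The cause of the other shifts was not tested. In pericyte-like cells Ccl8 gave no ratio under any setting, and Ccl7 gave none at 5% mitochondrial UMIs, where undamaged cells held no UMI. No paired analysis was possible because each group is 1 library. Depth limits the undamaged tdTomato values: Ccl8 rests on 69 UMIs in fibroblast-like cells, and every pericyte-like value on 179 cells.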

Other observations

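The condition of the PDGFRa hashtags is not given in the sources used here, and a condition was not read from measured values. Their values therefore enter no comparison of ligated with undamaged hearts. In hashtags 1 to 4 (2136, 3467, 569 and 1116 fibroblast-like cells) Ccl2 stood at 504, 336, 256 and 144 CPM and Ccl7 at 449, 382, 272 and 171 CPM. Ccl11 stood at 53.6, 89.1, 231 and 189 CPM. Hashtags 3 and 4 were thus above hashtags 1 and 2 for Ccl11 and below them for Ccl2 and Ccl7. Ccl8 stood at 11, 18.4, 13.9 and 10.6 CPM, Ccl19 at 1.67, 1.26, 2.63 and 2.07 CPM and Csf1 at 92.2, 80.8, 99.3 and 96.2 CPM. Of the scar response genes, Postn stood at 3625, 3854, 202 and 284 CPM and Cthrc1 at 879, 1128, 11.6 and 16.2 CPM in the same order, so the hashtags fell into the same pairs for both genes.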
